A study of Mus musculus with 12 samples.

Results

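The genes described here are 10 genes of brain endothelial cells and of the blood-brain barrier: Slc2a1, Abcb1a, Tek, Tie1, Kdr, Flt1, Cldn5, Pecam1, Podxl and Vwf. They were taken by name, and each was read from its probe set with a single gene symbol; each of the 10 had exactly 1 such probe set. They are 10 of the 19938 genes with a single-symbol probe set, and all 10 were among the 14953 genes bright enough to be tested.

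The samples are hypothalamic RNA from male C57BL/6J mice made obese by 20 weeks on high-fat food (45% fat), begun when they were 3 weeks old; they were 23 weeks old at the end. All mice, the vehicle group included, first received DMSO intraperitoneally for 4 days. They were then given withaferin A at 2 mg/kg, celastrol at 100 µg/kg or DMSO, once daily for another 4 days. Celastrol and withaferin A are plant compounds known to reduce eating and weight of mice with diet-induced obesity. Each group had 4 samples that the labels call biological replicates; the sources used here do not say how many mice gave each sample, and every animal was on the high-fat diet, so no lean mice enter these comparisons.

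Endothelial cells of brain capillaries are sealed to one another by tight junctions, carry few vesicles, and move nutrients such as glucose into the tissue through dedicated carriers while pumping many drugs back into the blood. Vascular endothelial growth factor (VEGF) and the angiopoietins act on them through receptor tyrosine kinases that govern growth, survival and permeability. The hypothalamus also holds the median eminence, where fenestrated capillaries without a tight barrier let hormones pass. In whole tissue, fewer endothelial cells and less RNA per endothelial cell cannot be told apart.

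Values are log2 signals of single Affymetrix probe sets, normalised by the authors with RMA, so that a difference of 1 is a doubling. Array medians lay between 6.89 and 6.98, and correlations between arrays between 0.981 and 0.994. Of the 15 hypothalamic marker genes listed, 14 had a probe set and all 14 were above the dim limit of 5.81. That limit was passed by 14953 of all 19938 genes, so passing it says little about the tissue. Celastrol replicate 2 stood apart in pituitary transcripts: the mean of 6 pituitary genes relative to DMSO was 2.35 there, 0.38 to 0.51 on the other celastrol samples, −0.04 to 0.43 on withaferin A samples and −0.23 to 0.21 on DMSO samples, and Gh reached 10.96. Thalamic transcripts varied within every group: the mean of 11 such genes ran from −0.22 to 0.54 on withaferin A samples, from −0.07 to 0.73 on celastrol samples and from −0.40 to 0.52 on DMSO samples. The withaferin A samples were not alike either. Of the 112 other genes that passed the threshold for celastrol versus DMSO, 86 (76.8%) lay nearer the celastrol mean than the DMSO mean on withaferin A replicate 1, and 52.7% did so on replicate 3, but 19.6% and 16.1% on replicates 2 and 4.

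Celastrol changed 3 of the 10 genes relative to DMSO. Slc2a1, the glucose carrier of the barrier, and Podxl, a sialylated surface protein, rose, while Tek, the angiopoietin receptor, fell. The other 7 did not pass an adjusted p of 0.05, which 0.769% of all tested genes did (0.455% as higher and 0.314% as lower). The groups did not overlap for 4 of the 10, against 7.21% of all tested genes, and 5 of the 10 had an unadjusted p under 0.05, against 10.4%. The genes did not move as a block: 6 had positive and 4 negative differences, with a median of 0.02, against −0.02 over all tested genes. The median size of the difference, regardless of sign, was 0.23 for the 10 genes and 0.06 over all tested genes. The 10 genes were chosen with earlier results of these data known, so these shares, and those in the other comparisons, are a description.

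**Figure D1:**
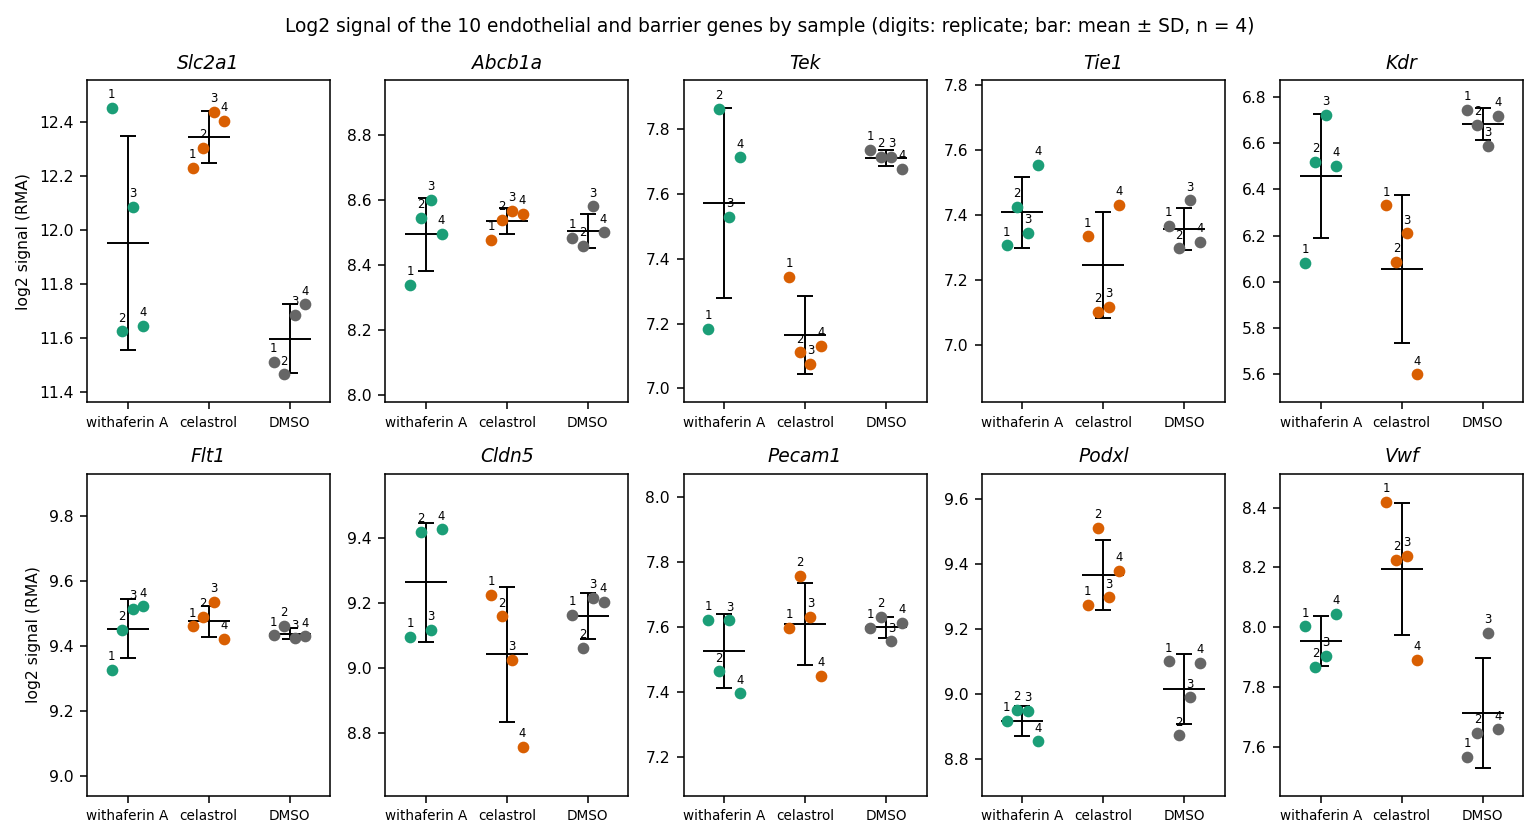
Log2 signal (RMA) of the 10 genes in each sample, with withaferin A, celastrol and DMSO from left to right; digits give the replicate, bars the mean ± SD (n = 4), and each panel has its own vertical range. Slc2a1 lies between 12.23 and 12.44 on the celastrol samples and between 11.47 and 11.72 on the DMSO samples, while withaferin A samples spread from 11.62 to 12.45.

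Of the transporters, Slc2a1 encodes GLUT1, which carries glucose across the capillary wall and is also made by astrocytes. The gene lies on chromosome 4 (chr4:119108745-119137330, GRCm38.p6). Its signal was 12.23, 12.30, 12.44 and 12.40 on the celastrol samples, against 11.51, 11.47, 11.69 and 11.72 on the DMSO samples. Every celastrol sample was higher than every DMSO sample, and the spread within each group (SD 0.10 with celastrol and 0.13 with DMSO) was small beside the gap. Slc2a1 rose 1.68-fold, a log2 difference of 0.75 ± 0.15 (SE, n = 4 per group; adjusted p = 0.0384). Abcb1a encodes P-glycoprotein, the drug efflux pump on the blood side of the barrier. It read 8.48, 8.54, 8.57 and 8.56 with celastrol, against 8.48, 8.46, 8.58 and 8.50 with DMSO. These ranges overlap almost fully, and the difference was 0.03 (95% interval −0.10 to 0.16; adjusted p = 0.912).

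The receptors split. Tek (chr4:94739086-94874976) encodes TIE2, the receptor for angiopoietins that keeps resting vessels stable. Its signal was 7.34, 7.11, 7.07 and 7.13 on the celastrol samples, against 7.74, 7.72, 7.72 and 7.68 on the DMSO samples. The spread was narrow, with an SD of 0.12 among celastrol samples and 0.02 among DMSO samples, and the groups did not overlap. Tek fell 1.46-fold, a log2 difference of −0.55 ± 0.11 (adjusted p = 0.045). Tie1, an orphan relative that pairs with TIE2, read 7.33, 7.10, 7.12 and 7.43 with celastrol, against 7.37, 7.30, 7.44 and 7.32 with DMSO. Only celastrol replicates 2 and 3 lay below the DMSO samples, and its difference of −0.11 ± 0.08 did not pass (adjusted p = 0.702).

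Kdr (chr5:75932827-75979072) encodes the main signalling receptor for VEGF. It had the largest difference of the receptors, but also a wide spread on celastrol: 6.33, 6.09, 6.21 and 5.60, against 6.75, 6.68, 6.59 and 6.72 with DMSO. All 4 celastrol samples were below all 4 DMSO samples, and celastrol replicate 4, at 5.60, was under the dim limit. The difference of −0.63 ± 0.15 did not pass (adjusted p = 0.0787). Without withaferin A replicate 1, which enters the spread shared by the 3 groups, it passed with the same difference (adjusted p = 0.032). Flt1, a VEGF receptor that binds the ligand tightly and signals little, read 9.46, 9.49, 9.54 and 9.42 with celastrol, against 9.43, 9.46, 9.42 and 9.43 with DMSO. The groups overlap, with a difference of 0.04 (95% interval −0.08 to 0.15; adjusted p = 0.868).

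The promoters of the receptors with the lowest values on celastrol, of the glucose carrier and of Flt1 are shown to set these genes side by side. They come from RefSeq (GRCm38.p6), run 5′ to 3′ on the gene's strand, and span 250 bases before to 50 bases after an annotated start; 7 of the 10 genes had an entry. The windows are chr4:94739039-94739338 for Tek and chr4:119108495-119108794 for Slc2a1, both on the plus strand, and chr5:75978406-75978705 for Kdr and chr5:147725962-147726261 for Flt1, both on the minus strand. Capitals mark matches, on either strand, to CNGGAA, a core bound by ETS factors, or to ACGTG, a core bound by hypoxia-inducible factors; no match overlaps another.
Tek: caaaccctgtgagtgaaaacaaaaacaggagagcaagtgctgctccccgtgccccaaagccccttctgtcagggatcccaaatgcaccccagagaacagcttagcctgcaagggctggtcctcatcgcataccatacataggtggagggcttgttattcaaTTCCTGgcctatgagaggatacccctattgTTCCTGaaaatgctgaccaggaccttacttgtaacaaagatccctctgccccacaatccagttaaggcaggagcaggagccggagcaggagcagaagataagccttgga
Kdr: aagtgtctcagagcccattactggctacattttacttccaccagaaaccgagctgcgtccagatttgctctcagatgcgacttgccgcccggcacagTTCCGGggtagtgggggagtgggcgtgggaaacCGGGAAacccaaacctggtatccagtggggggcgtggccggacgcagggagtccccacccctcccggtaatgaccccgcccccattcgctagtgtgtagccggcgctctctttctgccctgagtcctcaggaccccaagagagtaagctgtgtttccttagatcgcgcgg
Flt1: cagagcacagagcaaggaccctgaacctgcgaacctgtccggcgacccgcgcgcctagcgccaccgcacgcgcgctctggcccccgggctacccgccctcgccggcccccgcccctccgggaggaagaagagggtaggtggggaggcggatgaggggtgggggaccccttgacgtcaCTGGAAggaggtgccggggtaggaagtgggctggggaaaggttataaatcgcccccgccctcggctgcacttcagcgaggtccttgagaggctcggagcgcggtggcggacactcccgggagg
Slc2a1: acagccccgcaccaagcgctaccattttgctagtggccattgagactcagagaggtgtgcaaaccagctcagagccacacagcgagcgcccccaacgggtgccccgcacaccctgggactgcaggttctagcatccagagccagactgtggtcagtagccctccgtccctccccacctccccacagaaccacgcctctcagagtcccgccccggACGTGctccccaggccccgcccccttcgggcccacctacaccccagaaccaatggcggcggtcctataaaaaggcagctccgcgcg
Tek and Kdr each hold 2 ETS-core matches and Flt1 holds 1, while Slc2a1 holds none and has 1 ACGTG match. The promoter of Tie1, which did not pass, holds 3 ETS-core matches, the most among the 7. Of all 32851 RefSeq promoters of this length, 61.7% hold CNGGAA and 19.6% hold ACGTG on either strand, so these letters are common. AGAACA, a short sequence bound by the glucocorticoid receptor, occurs in 19.0% of promoters and in 2 of the 7: once in that of Tek, uncapitalised here, and once in that of Abcb1a, which did not pass.

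Among the junction and surface proteins, Podxl encodes podocalyxin, which lines the inner face of vessels and also occurs on kidney podocytes and neurons. The gene lies on chromosome 6 (chr6:31519493-31563937). Its signal was 9.27, 9.51, 9.30 and 9.38 on celastrol samples, against 9.10, 8.87, 8.99 and 9.10 on DMSO samples. Each celastrol sample exceeded each DMSO sample, replicate 2 with its pituitary transcripts being the highest. Podxl rose 1.27-fold, by 0.35 ± 0.07 (adjusted p = 0.0333), and without celastrol replicate 2 the difference was 0.30 (adjusted p = 0.0954).

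Cldn5 encodes claudin-5, the main sealing protein of the barrier's tight junctions. It read 9.23, 9.16, 9.03 and 8.76 with celastrol, against 9.16, 9.06, 9.22 and 9.20 with DMSO. The celastrol samples reached past the DMSO samples on both sides, with replicate 4 the lowest of the 8; the difference was −0.12 ± 0.10 (adjusted p = 0.768). Without celastrol replicate 4 it was −0.02. Pecam1, an adhesion protein at endothelial contacts, read 7.60, 7.76, 7.63 and 7.45 with celastrol, against 7.60, 7.63, 7.56 and 7.61 with DMSO. Its difference was 0.01 (95% interval −0.14 to 0.16; adjusted p = 0.976), and it was −0.04 without celastrol replicate 2.

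Vwf (chr6:125552948-125686679) encodes von Willebrand factor, the clotting protein that endothelial cells store and secrete. It read 8.42, 8.23, 8.24 and 7.89 with celastrol, against 7.57, 7.65, 7.98 and 7.66 with DMSO. Celastrol replicate 4 lay below DMSO replicate 3, and the other samples were separated by group. The difference of 0.48 ± 0.11 did not pass (adjusted p = 0.066). It passed without celastrol replicate 4 (0.58, adjusted p = 0.0217) or DMSO replicate 3 (0.57, adjusted p = 0.0369).

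In limma, leaving out any 1 DMSO or celastrol sample took the number of the 10 genes past the threshold to 0 or 1: it was 0 without DMSO replicates 1, 2 or 4 or celastrol replicates 2 or 3, and 1 without DMSO replicate 3, celastrol replicate 1 or celastrol replicate 4. It was 4 without withaferin A replicate 1 and 2 without withaferin A replicate 3. Of the 12 fits that left out a single sample, Slc2a1 lost its call in 8 (adjusted p up to 0.135), Tek in 9 (up to 0.142) and Podxl in 7 (up to 0.118). The differences themselves moved little, from 0.70 to 0.79 for Slc2a1, from −0.61 to −0.52 for Tek and from 0.30 to 0.38 for Podxl.

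**Figure D2:**
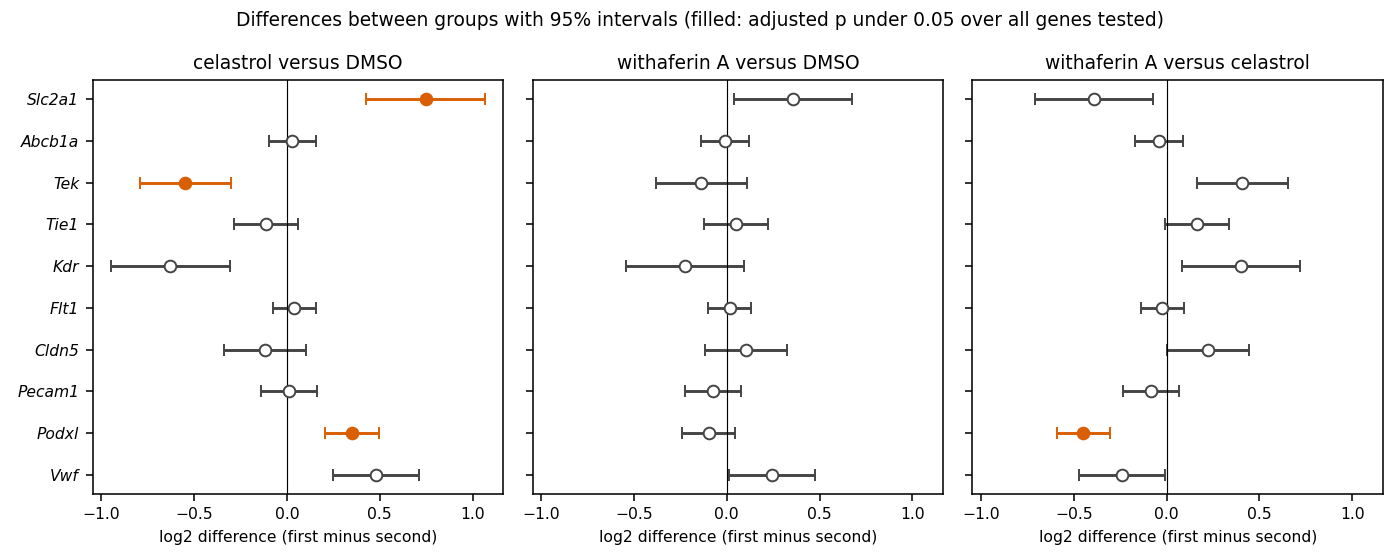
Log2 differences of the 10 genes in the 3 comparisons, first group minus second, with 95% intervals from the fit to all 12 samples; filled points passed an adjusted p of 0.05. Slc2a1 (0.75), Tek (−0.55) and Podxl (0.35) pass for celastrol versus DMSO, none for withaferin A versus DMSO, and Podxl (−0.45) for withaferin A versus celastrol.

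Withaferin A changed none of the 10 genes past the threshold relative to DMSO, as was so for all 14953 genes (0%) in limma. Without DMSO replicate 3, 56 of all genes were higher and 116 lower past the threshold, still with 0 of the 10. At an unadjusted p under 0.05 there were 2 of the 10, Slc2a1 and Vwf, against 15.7% of all tested genes, and the groups overlapped for every one of the 10 (7.6% of all tested genes did not overlap). The differences were 5 positive and 5 negative, with a median of 0.0027, against −0.0041 over all tested genes. Both comparisons with DMSO use the same 4 vehicle samples.

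Slc2a1 was 12.45, 11.62, 12.09 and 11.64 on the withaferin A samples, against 11.47 to 11.72 with DMSO. Replicate 1 was marginally above the highest celastrol sample, replicate 3 was above all DMSO samples, and replicates 2 and 4 lay inside the DMSO range. The mean difference was 0.36 ± 0.15 (adjusted p = 0.273) with an SD of 0.40 among the withaferin A samples, and 0.19 without replicate 1. Tek read 7.18, 7.86, 7.53 and 7.71, against 7.68 to 7.74 with DMSO. Replicate 1 lay within the celastrol range (7.07 to 7.34), replicate 3 below DMSO, replicate 2 above it and replicate 4 inside it. The difference was −0.14 ± 0.11 (adjusted p = 0.576), and −0.0091 without replicate 1.

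Kdr read 6.08, 6.52, 6.72 and 6.50 with withaferin A, against 6.59 to 6.75 with DMSO. Replicate 1 was the lowest withaferin A sample, as for Tek, and replicate 3 was the highest and inside the DMSO range. The difference was −0.23 ± 0.15 (adjusted p = 0.47), and −0.10 without replicate 1. Podxl read 8.92, 8.95, 8.95 and 8.85, against 8.87 to 9.10 with DMSO, a difference of −0.10 ± 0.07 (adjusted p = 0.494). On replicate 1 Podxl was below every celastrol sample. Over the 10 genes, 6 lay nearer the celastrol mean on replicate 1, 1 on replicate 2, 4 on replicate 3 and 2 on replicate 4. Where the celastrol and DMSO means are close, as for Pecam1, being nearer either says little. Of the 3 genes past the threshold for celastrol versus DMSO, 2 lay nearer the celastrol mean on replicate 1. On replicate 3 it was 1, and on replicates 2 and 4 it was 0.

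Vwf read 8.003, 7.87, 7.90 and 8.05 with withaferin A, against 7.57, 7.65, 7.98 and 7.66 with DMSO. The withaferin A samples exceeded 3 of the 4 DMSO samples, and DMSO replicate 3 lay among them. The difference was 0.24 ± 0.11 (adjusted p = 0.299). Cldn5 fell into pairs, at 9.10 and 9.12 on replicates 1 and 3 and at 9.42 and 9.43 on replicates 2 and 4, against 9.06 to 9.22 with DMSO. Its difference was 0.10 ± 0.10 (adjusted p = 0.652). Tie1 (0.05), Flt1 (0.02), Pecam1 (−0.07) and Abcb1a (−0.01) had adjusted p-values from 0.64 to 0.942.

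**Figure D3:**
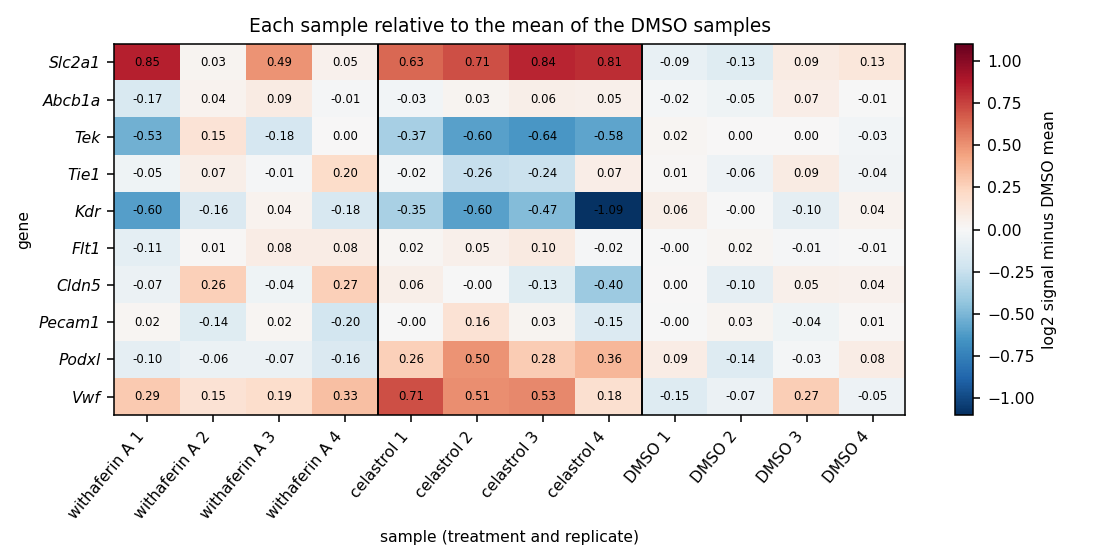
Log2 signal of each gene (rows) in each sample (columns) minus the mean of the 4 DMSO samples, printed in each cell and shown by colour. Withaferin A replicate 1 has 0.85 for Slc2a1, −0.53 for Tek and −0.60 for Kdr, against 0.63 to 0.84, −0.64 to −0.37 and −1.09 to −0.35 on celastrol samples, but −0.10 for Podxl, where celastrol samples have 0.26 to 0.50.

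Set directly against celastrol, withaferin A had a lower Podxl signal. The values of 8.85 to 8.95 with withaferin A, against 9.27 to 9.51 with celastrol, did not overlap, and the difference was −0.45 ± 0.07 (adjusted p = 0.0306). Podxl was the only gene of the 10 past the threshold in this comparison, which 0.0468% of all tested genes passed (0.00669% as higher and 0.0401% as lower). The groups failed to overlap for 1 of the 10, against 9.27% of all tested genes, and 5 of the 10 had an unadjusted p under 0.05, against 16.1%. The doses differ between the compounds, so the comparison is of 2 regimens.

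Tek was higher with withaferin A than with celastrol by 0.41 ± 0.11 (95% interval 0.16 to 0.65; adjusted p = 0.16), and Kdr by 0.40 ± 0.15 (0.08 to 0.72; adjusted p = 0.222). For Slc2a1 the difference was −0.39 ± 0.15 (−0.71 to −0.07; adjusted p = 0.231). These 3 did not pass, and the intervals leave room for differences of over 0.6. Single samples moved them in both directions. Without withaferin A replicate 1, Tek had 0.54 (adjusted p = 0.0178) and passed, so that 2 of the 10 genes did, while Kdr had 0.53 (adjusted p = 0.112) and Slc2a1 −0.56 (adjusted p = 0.0529). Of all 14953 tested genes, 17 were then higher and 39 lower past the threshold, against 1 and 6 with all samples. Without withaferin A replicate 2, Tek had 0.31 and Slc2a1 −0.28, and without celastrol replicate 4 Kdr had 0.25. The intervals were −0.14 to 0.09 for Flt1, −0.24 to 0.07 for Pecam1 and −0.17 to 0.09 for Abcb1a. Without celastrol replicates 2, 3 or 4, or withaferin A replicates 2, 3 or 4, Podxl did not pass and the count was 0, with differences from −0.47 to −0.40.

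Other genes linked to these cells and to the barrier were described from 8 lists, with 134 distinct genes tested. The signals are of whole tissue, and how much of them came from other cells was not tested. After celastrol 6 of the 134 passed, where 0.769% of all tested genes did, and 42 (31.3%) had an unadjusted p under 0.05, against 10.4% of all tested genes. The lists were chosen with earlier results of these data known, so these shares are a description. After celastrol, of 18 barrier transporters 2 fell, 0 rose and 16 did not pass, with 10 at an unadjusted p under 0.05, 12 of 18 below 0 and a median of −0.12, against −0.02 over all tested genes. Slc6a6, the taurine carrier, fell by 0.42 ± 0.07 (adjusted p = 0.0234), and Slc38a3, a glutamine carrier, fell by 0.40 ± 0.08 (adjusted p = 0.0326). Slco1c1, which carries thyroxine into the brain, was at 8.57 with celastrol, against 9.12 with DMSO, without overlap between the groups (−0.56 ± 0.13, adjusted p = 0.0779). Mfsd2a, which carries docosahexaenoic acid and limits vesicle traffic, was at 10.54 with celastrol, against 9.95 with DMSO, again without overlap, and its difference of 0.59 ± 0.24 did not pass (adjusted p = 0.377). Mfsd2a stands in both the transporter and the vesicle list.

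Of 11 genes of vesicles and fenestrae 1 fell and 0 rose, with 7 at an unadjusted p under 0.05 and a median of −0.12. Cav1, the coat protein of caveolae, was at 7.50 with celastrol, against 7.84 with DMSO, and fell by 0.35 ± 0.07 (adjusted p = 0.0326). Cavin2 (−0.25, adjusted p = 0.155) and Cavin3 (−0.21, adjusted p = 0.216) of the same coat did not pass. Plvap, the diaphragm protein of fenestrated capillaries, had −0.12 ± 0.13 (adjusted p = 0.819). In the Wnt pathway that builds the barrier, 1 of 19 genes fell and 0 rose, with 5 at an unadjusted p under 0.05 and a median of −0.06. It was Wnt7a, a ligand that neural cells send to vessels, which fell by 0.45 ± 0.09 (adjusted p = 0.0431); Apcdd1 (−0.24, adjusted p = 0.117) and Wnt7b (−0.28, adjusted p = 0.164) did not pass.

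Pan-endothelial genes had 1 of 27 rising and 1 falling after celastrol, with 10 at an unadjusted p under 0.05, a median of −0.11 and 20 of 27 below 0. Cyyr1, a small membrane protein gene, rose by 0.97 ± 0.15 (adjusted p = 0.0158), at 9.36 with celastrol, against 8.39 with DMSO. Pltp, the phospholipid transfer protein, fell by 0.46 ± 0.09 (adjusted p = 0.0403), and Tmem204 had −0.28 (adjusted p = 0.107). Endothelial transcription factors had 0 of 20 past the threshold and a median of −0.14; at an unadjusted p under 0.05 there were 5. Foxo1, which TIE2 signalling keeps in check, had 0.27 ± 0.06 (adjusted p = 0.066), the ETS factor gene Fli1 −0.26 ± 0.06 (adjusted p = 0.0769) and the venous regulator Nr2f2 −0.28 ± 0.07 (adjusted p = 0.0831).

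The vascular growth factors and co-receptors had 0 of 12 past the threshold, 3 at an unadjusted p under 0.05 and a median of −0.08. Vegfa, the ligand of Kdr and Flt1, was at 9.21 with celastrol, against 9.41 with DMSO (−0.20 ± 0.06, adjusted p = 0.159). Ptprb, the phosphatase that dampens TIE2, had −0.25 ± 0.09 (adjusted p = 0.28), and Svep1, an extracellular protein that binds TIE1, had −0.16 (adjusted p = 0.371). Junction genes had 0 of 16 (1 unadjusted) and a median of −0.0019, with the junction protein genes Esam at 0.21 ± 0.07 (adjusted p = 0.234), Cldn1 at 0.14 and Cgn at −0.28 (adjusted p = 0.592 for both). Leukocyte adhesion genes had 0 of 12 (2 unadjusted) and a median of −0.00057, with Mcam at −0.30 (adjusted p = 0.27), the selectin gene Sele at 0.27 (adjusted p = 0.331) and Vcam1 at −0.17 (adjusted p = 0.504).

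**Figure D4:**
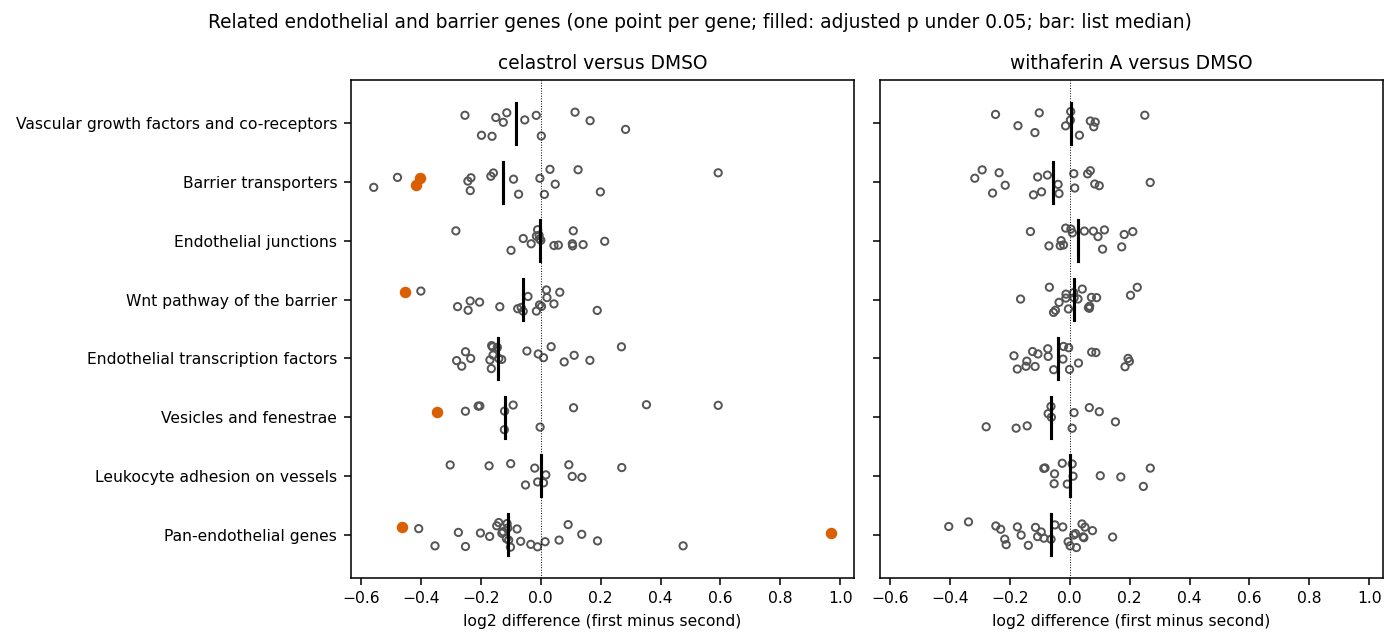
Log2 differences of the genes of the 8 related lists for celastrol versus DMSO (left) and withaferin A versus DMSO (right), 1 point per tested gene; filled points passed an adjusted p of 0.05 and bars are list medians. Filled points appear for celastrol in the transporter (2), Wnt (1), vesicle (1) and pan-endothelial (2) lists, and none for withaferin A.

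The 6 genes named as changed kept their direction but not their call when single samples were left out. Of 12 such fits, Cyyr1 passed in 9, Cav1 and Slc6a6 in 6, Slc38a3 and Pltp in 4 and Wnt7a in 3. All 6 lost their call without DMSO replicate 2, celastrol replicate 2 or celastrol replicate 3. Each of the remaining DMSO and celastrol samples also ended the call of at least 1 of them when left out, as did withaferin A replicate 2 for Wnt7a and replicate 3 for Wnt7a and Pltp. With no filter on dim genes Cav1, Slc38a3, Pltp and Wnt7a did not pass, and Wnt7a did not pass either with the 8 celastrol and DMSO samples alone.

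After withaferin A, 0 genes of the 8 lists passed against DMSO in limma, of 134 distinct genes tested; 22 had an unadjusted p under 0.05 (16.4%), against 15.7% of all tested genes. The medians ran from −0.06 for pan-endothelial genes to 0.03 for junction genes, against −0.0041 over all tested genes. Cav1 was at 7.56 with withaferin A, against 7.84 with DMSO, without overlap between the groups (−0.28 ± 0.07, adjusted p = 0.155), while Cav2, its partner in caveolae, had −0.18 and Ehd4, an ATPase of membrane traffic, −0.14. Nrp1, a VEGF co-receptor, had −0.25 ± 0.08 (adjusted p = 0.191), and the angiopoietins that bind TIE2 had −0.17 (Angpt1) and 0.25 (Angpt2). Ager, a barrier receptor for glycated proteins, had 0.27 (adjusted p = 0.184), Slc38a3 −0.24 and Slc6a6 −0.22. Foxf2, a factor of brain pericytes and vessels, had 0.23 (adjusted p = 0.181), the Wnt receptor gene Fzd4 0.20 and Wnt7a −0.16. Of the pan-endothelial genes, S1pr1, a sphingosine phosphate receptor, had −0.25, Mmrn2 −0.23 and Emcn −0.40 (adjusted p from 0.202 to 0.244). The junction genes Amotl1 (0.21), Gja4 (0.18) and Tjp1 (−0.13), the transcription factor genes Gata2 (0.18), Etv6 (−0.19) and Tal1 (0.19) and the surface protein genes Procr (0.27), Sele (0.25) and Icam1 (0.17) had adjusted p-values from 0.266 to 0.498.

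Between withaferin A and celastrol 0 of the 134 passed and 28 (20.9%) had an unadjusted p under 0.05, against 16.1% of all tested genes. Those nearest the threshold were Cyyr1 (−0.83 ± 0.15, adjusted p = 0.0713), Tmem204 (0.32, adjusted p = 0.0932), Cavin2 (0.32, adjusted p = 0.106) and Apcdd1 (0.26, adjusted p = 0.113). Without withaferin A replicate 1, 4 of the list genes named here passed: Cyyr1 (−1.02, adjusted p = 0.00076), Fzd6 (0.52, adjusted p = 0.0416), Mcam (0.43, adjusted p = 0.0431) and Cavin2 (0.37, adjusted p = 0.0464). Of all 14953 tested genes, 17 were higher and 39 lower past the threshold in that fit. With all samples, the Wnt receptor gene Fzd6 had 0.39, Wnt7a 0.29, the VEGF genes Vegfa 0.20 and Vegfd 0.20, and Svep1 0.19. The amino acid carriers Slc7a1, Slc7a5 and Slc6a6 had 0.18, 0.22 and 0.20. Of the adhesion and junction genes, Mcam had 0.31, Icam2 0.20, Icam1 0.22, Ocln 0.21, Esam −0.23 and Jam3 −0.13. The transcription factor genes Foxo1, Ets2 and Lyl1 had −0.18, −0.22 and 0.31, and Dnm2 had −0.10, Mfsd2a −0.49 and Pglyrp1 −0.46. From Fzd6 to Pglyrp1 the adjusted p-values ran from 0.16 to 0.4.

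Markers of other cell types moved with some of these genes. The mean of 9 oligodendrocyte genes relative to DMSO was −0.32 to −0.07 on withaferin A samples, −0.28 to −0.21 on celastrol samples and −0.04 to 0.05 on DMSO samples. It was lowest of the withaferin A samples on replicate 1, where Tek and Kdr were lowest too. Other marker means were also lowest there, among them those of microglia (−0.22), neurons (−0.07) and pericytes with smooth muscle (−0.13). The astrocyte and hypothalamic means were lowest on replicate 4 (−0.12 and −0.19). On replicate 3 the oligodendrocyte mean was −0.18, but Kdr was the highest of the withaferin A samples. After celastrol 2 of the 9 oligodendrocyte genes fell, Opalin (−1.003 ± 0.18, adjusted p = 0.0229) and Sox10 (−0.39 ± 0.08, adjusted p = 0.0433). The other 7 did not pass, and they were not all lower: Mobp had 0.31 ± 0.08 (adjusted p = 0.127), without overlap between the groups, and Cldn11 0.10, against −0.47 for Ugt8a, −0.31 for Ermn, −0.21 for Mag, −0.20 for Mog and −0.06 for Mbp. Of 14 hypothalamic genes 1 fell after celastrol, Oxt, where 0.769% of all tested genes passed. Of these 14, 12 had differences below 0 and 7 an unadjusted p under 0.05, against 10.4% of all tested genes. Their median was −0.16, against −0.02 over all tested genes. After withaferin A 0 passed, 10 were below 0 and the median was −0.12, against −0.0041 over all tested genes. The mean of 28 pan-endothelial genes was −0.12 to −0.04 with withaferin A, −0.12 to −0.03 with celastrol and −0.02 to 0.01 with DMSO. That of 14 pericyte and smooth muscle genes was −0.13 to 0.06 with withaferin A, −0.07 to 0.0048 with celastrol and −0.01 to 0.0094 with DMSO, and that of 10 astrocyte genes −0.12 to 0.04, −0.02 to 0.06 and −0.03 to 0.04 in the same order of groups. The part of these cell types in the changes of Slc2a1, Tek and Podxl was not tested.

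For each gene that passed, the 5 tested genes whose values over the 12 samples ran closest to it were found, each gene being centred on its own mean. For Slc2a1 they were Cmtm3, Slc25a13, Aff1, Gpd1 and Pnpla2, with root mean square differences from 0.096 to 0.109, where Slc2a1 itself varied by 0.372. For Tek they were Pllp, Gpr37, Trib2, Nkx6-2 and Fgfr2, at 0.084 to 0.115 against 0.281. For Podxl they were Zfp36, Kansl1l, Fcgr2b, Ptgds and Ppil6, at 0.080 to 0.105 against 0.208. These 15 genes were picked for their likeness, so their own differences are a description. After celastrol the log2 differences of the 5 nearest Slc2a1 were 0.56 to 0.77, those of the 5 nearest Tek −0.54 to −0.35 and those of the 5 nearest Podxl 0.27 to 0.47.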

How the data were processed

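The deposited table gives log2 signal values of 35556 probe sets on 12 one-colour Affymetrix arrays, made by the authors with RMA per the submitters' processing notes; RMA corrects background, brings arrays to a common scale and summarises each probe set, and its version is not given in the sources used here. Probe sets were paired with genes by the platform annotation: 21789 had 1 symbol, 1621 several and 12146 none, and only the first kind was used. The brightest probe set stood for each of 19938 genes. Genes with a mean under the 25th percentile, 5.81, were left out as dim.

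Group means were fitted to all 12 samples with lmFit and eBayes of limma 3.58.1 under R 4.3.3 and compared by two-sided moderated tests, with Benjamini-Hochberg adjustment over 14953 genes and a threshold of 0.05. SE and 95% intervals come from this fit, which pools the spread of the 3 groups (9 residual and 4.44 prior degrees of freedom); array number limits the precision, as no counts underlie the values. The fit was tested on simulated data with independent noise, in which no sample stood apart across genes. That test therefore does not bear on how single samples decide the calls here. All 10 genes are named, as are, per list and comparison, the genes past the threshold and, up to 3 in all, those of smallest p. For celastrol versus DMSO, Mfsd2a, Plvap, Nostrin and Dnm2 were added after their values were seen, as were the statements on single withaferin A samples. The members and lists were chosen with earlier results of these data known. Sequences came from RefSeq (GRCm38.p6). Alternatives were other dim filters, scalings, an intensity trend, array weights, the samples of each pair of groups alone, a replicate block, a laxer threshold and leaving out samples; the other probe sets of a gene could not be tried, since each of the 10 had 1. Plots were drawn with matplotlib 3.10.9.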

Additional observations from a re-analysis of the deposited data

Results flagged for a closer look

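The effect of the 2 compounds on Podxl differed by the test of the difference itself: withaferin A minus celastrol was −0.45 ± 0.07 (SE, n = 4 per group, adjusted p = 0.0306 in limma), with all 4 withaferin A samples below all 4 celastrol samples. The call was lost in 6 of 12 fits that left out a single sample (without celastrol replicate 2, which stands apart in pituitary transcripts, −0.40 with adjusted p = 0.0861; highest adjusted p 0.149, without withaferin A replicate 4). It was also lost with the 8 samples of the 2 groups alone (adjusted p = 0.0989) and with a replicate block. In several of these fits few or no genes passed at all. Of all 14953 tested genes, 0 passed with the 8 samples, without celastrol replicate 3 or without withaferin A replicate 4. In other fits more genes passed: 3 higher and 12 lower without celastrol replicate 4, and 1 and 6 with the replicate block. The compounds were given at different doses. In none of the 30 groups of 4 values (10 genes in 3 groups) did a sample lie far enough from the others to pass Dixon's 95% limit.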

How the results depend on the processing

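Direction and side of the threshold held for 2157 of 2305 values of 65 single genes under 23 settings. Of the rest, 92 values lost and 41 gained a call, and 15 changed sign. Most of the 2305 values are of genes that did not pass in the fit to all 12 samples and so had no call to lose. All 92 losses were therefore of genes that had passed there, so 2157 of 2305 does not measure how well the calls held. The number of the 10 genes past the threshold for celastrol versus DMSO was 3. It was 0 with no filter on dim genes, where more genes are adjusted for, and 5 with array weights or with an adjusted p of 0.10, while leaving out single samples gave 0 to 4. Vwf, not one of the 3 genes called, was the gene left without DMSO replicate 3 or celastrol replicate 4, and Podxl without celastrol replicate 1. A filter at the 50th percentile left 7 of the 10, without Tek, Tie1 and Kdr, and Vwf then passed. For withaferin A versus celastrol the count of 1 became 0 with the 8 samples of the 2 groups alone, or with celastrol replicate 2 and withaferin A replicate 1 both left out, and 0 to 2 without single samples. For withaferin A versus DMSO the count was 0 in every setting, array weights and the intensity trend included. Over all genes, celastrol versus DMSO had 68 higher and 47 lower past the threshold, against 43 and 17 with no filter on dim genes, 99 and 96 with the intensity trend, 128 and 91 with array weights, 121 and 61 with 8 samples, 40 and 14 with the replicate block, 118 and 94 at 0.10, and from 4 and 2 (without DMSO replicate 2) to 116 and 91 (without withaferin A replicate 1) with single samples left out. Withaferin A versus DMSO had 0, against 1 and 7 with the trend, 7 and 14 with weights and 4 and 4 at 0.10. Among single genes the sign turned for Pecam1 after celastrol (−0.039 with celastrol replicate 2 and withaferin A replicate 1 both left out), for Abcb1a after withaferin A (0.015 with renewed quantile normalization, 0.019 with array weights and 0.041 with those 2 samples left out), for Flt1 between the compounds (0.0038 with renewed quantile normalization and 0.023 without those 2 samples) and for Abcb1a between the compounds (0.013 without them). None of these values had passed. With single samples left out, the sign also turned for Pecam1 after celastrol (−0.039 to 0.063), Flt1 (−0.0067 to 0.059) and Abcb1a (−0.046 to 0.041) after withaferin A, and Flt1 (−0.046 to 0.019) and Abcb1a (−0.075 to 0.012) between the compounds. Same-numbered samples of different groups showed no strong shared deviation (residual correlation over 0.1 in 2 of 12 pairs, −0.281 to 0.119). The labels do not say what the numbers mean, and such correlations cannot tell whether same-numbered samples were handled together. With a replicate block the counts were 0 for celastrol versus DMSO and 0 for withaferin A versus celastrol. Of the 6 related genes called for celastrol versus DMSO, Slc6a6, Slc38a3, Pltp and Wnt7a then lost their call. Except where the number of genes tested or of samples shows it, the cause of these changes was not tested.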
